A study of Caenorhabditis elegans with 12 samples.

Results

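The miRNAs described here are miR-46 and miR-47, and miR-75 and miR-79, which form 2 pairs of paralogs in *Caenorhabditis elegans*. They were chosen by name, as every entry of the miRNA count table called miR-46, miR-47, miR-75 or miR-79 with either arm, and this gave 8 of the 263 miRNAs listed, the 3p and the 5p arm of 4 precursors. The 3p arms (cel-miR-46-3p, cel-miR-47-3p, cel-miR-75-3p and cel-miR-79-3p, written below without the species prefix) are the commoner arms. The question put to them was whether the members of a pair moved together when worms were fed glucose, solvent or naringin (Nar), a flavonoid of citrus fruit. Small RNA was sequenced from whole wild-type N2 worms in 4 groups of 3 libraries. All worms were moved at the L4 larval stage to plates with OP50 bacteria and kept for 5 d at 20 °C, with progeny removed every day. Control worms had no added glucose, and the high-glucose-induced (HGI) worms had 2% glucose alone (Glu), 2% glucose plus 0.1% of the solvent DMSO (DMSO + Glu), or 2% glucose plus 25 μM Nar dissolved in DMSO (Nar + Glu). Whole worms mix every tissue, so fewer cells of a type and less miRNA per cell cannot be told apart.

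A miRNA is cut from a hairpin precursor, which yields a 5p and a 3p arm, and usually only the commoner arm is kept in the silencing complex while the other is broken down. The kept arm binds messenger RNAs mainly through its seed, a short stretch near its start, so paralogs with the same seed are expected to share many targets. miR-46-3p and miR-47-3p share their seed with the miR-281 family of insects. miR-75-3p and miR-79-3p share theirs with miR-4 of the fruit fly, and miR-79 is related to the minor strand of miR-9 of other animals. In worms, miR-79 of the epidermis is known to guide migrating neurons by limiting sqv-5 and sqv-7, genes of sugar-chain synthesis.

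The 4 genes lie apart from each other, all on the plus strand and between protein-coding genes (WBcel235). The gene mir-46 (WBGene00003274) is at III:13660515-13660611, between set-16, a histone methyltransferase gene, and the neuropeptide gene flp-15, and it overlaps the noncoding RNA ZK525.4 of the minus strand. Its paralog mir-47 (WBGene00003275) is at X:13921250-13921346, between ekl-5 and meg-2. The gene mir-75 (WBGene00003303) is also on X, at X:2372453-2372549, between T24D8.6 and F47G3.3. Its paralog mir-79 (WBGene00003307) is at I:9332946-9333043, between cbl-1 and lin-41, a developmental timing gene, and it overlaps the noncoding RNA C12C8.6 of the minus strand.

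Libraries held 4990586 to 5868806 counts for Control, 3033268 to 4029351 for Glu, 3267311 to 3849726 for DMSO + Glu and 2640879 to 3141140 for Nar + Glu. Every Control library was thus deeper than every glucose library, and for the members called between them the values after thinning all libraries to equal totals are given below. Levels are CPM, that is, each count relative to its library total, scaled over the 12 libraries with edgeR's TMM factor, which is set from the bulk of the miRNAs. Nar + Glu libraries had TMM factors of 1.18 to 1.33 and the others 0.758 to 1.03, so scaling by library totals alone moved the median log2FC of all miRNAs for Nar + Glu against DMSO + Glu from −0.06 to 0.37. Markers of other tissues were all detected. The muscle miRNA miR-1-3p spanned 216768 to 291873 CPM in Nar + Glu and 386180 to 583796 CPM in the other groups. The summed level of the 8 embryo and germline miRNAs ran from 97968 to 172912 CPM, and the intestinal miR-60-3p from 1424 to 1896 CPM. The glial miR-228-5p ran from 5118 to 7024 CPM and the 3 neuronal miRNAs together from 13.4 to 29.8 CPM.

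Both 3p arms of the miR-46 and miR-47 pair were abundant and near each other in level. Over the 12 libraries miR-47-3p averaged 3739 CPM and miR-46-3p 3319 CPM, ranks 21 and 23 of 263. The other pair was unequal, with miR-79-3p at 213 CPM (rank 75) and miR-75-3p at 66.5 CPM (rank 104). The 5p arms were the scarcer arm of every precursor, with miR-46-5p at 222 CPM, miR-47-5p at 120 CPM, miR-79-5p at 38.9 CPM and miR-75-5p at 5.57 CPM. The counts behind miR-75-5p were only 11 to 38 per library, against 9543 or more for miR-46-3p. All 8 members passed the filter on low counts in each of the 4 comparisons. The sequences of miR-46-3p and miR-47-3p are closely similar, and how reads matching both were counted was not found (not given in the sources used here), so the split between these rows is uncertain.

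**Figure D1:**
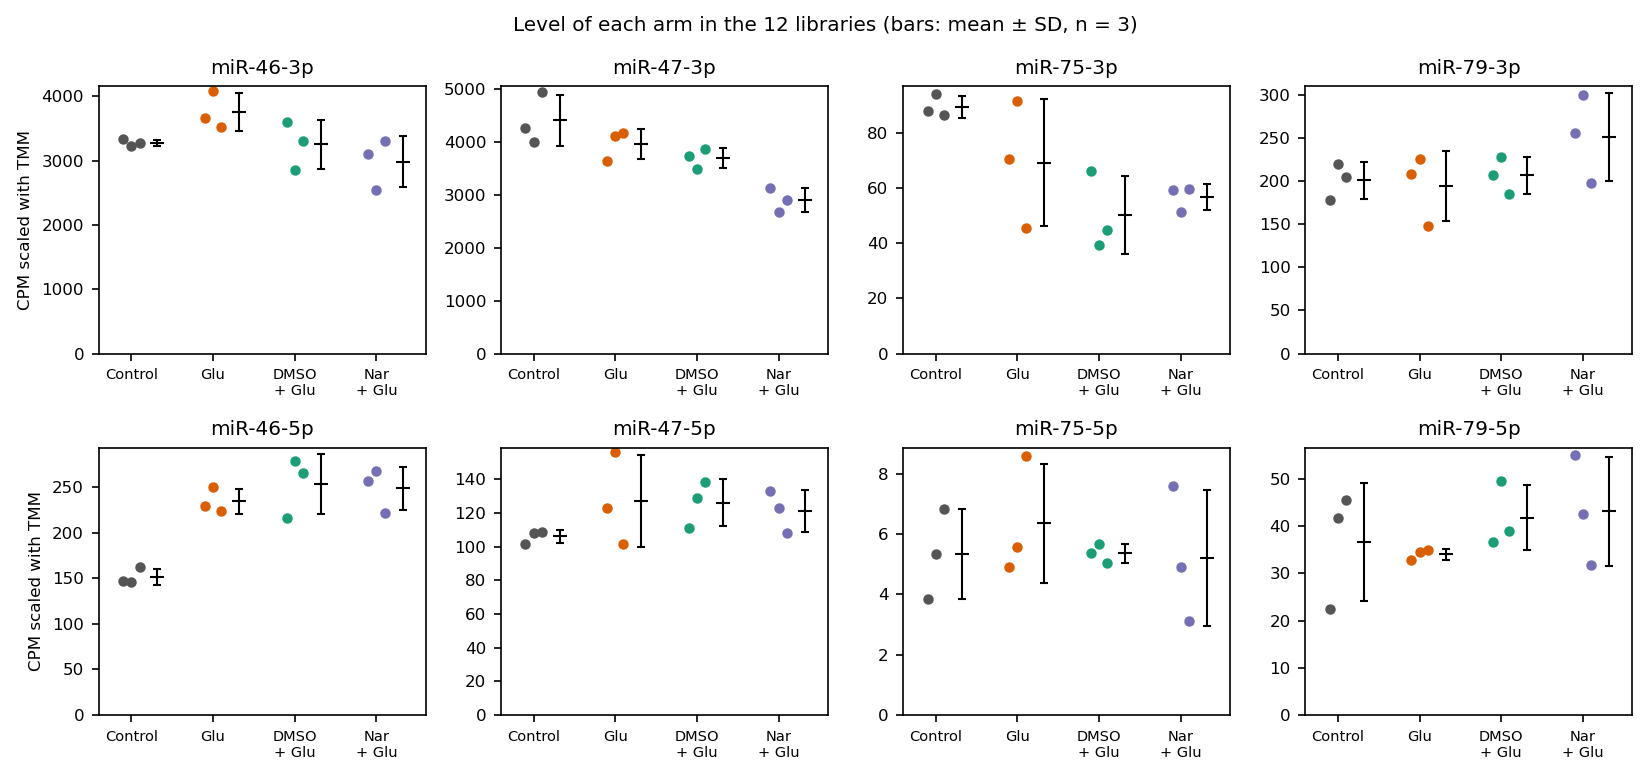
CPM scaled with TMM (y axis, from 0) of the 8 arms in the 4 groups, where each point is a library and the bars are mean ± SD (n = 3). The Control points of miR-46-5p lie at 146 to 162 CPM, under the 216 to 279 CPM of the glucose libraries, while miR-47-3p is lowest in Nar + Glu and miR-75-3p is highest in Control.

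The first comparison sets the mean of the 3 glucose groups against Control in a fit of all 12 libraries. DMSO + Glu and Nar + Glu also carried DMSO, and Nar + Glu carried Nar, so this contrast is not of glucose alone. With p-values from edgeR's quasi-likelihood fit adjusted by Benjamini-Hochberg over 225 miRNAs, 3 of the 8 members were called, 1 higher and 2 lower, beside 32.9% of all miRNAs tested (15.6% higher and 17.3% lower). The same 3 had an unadjusted p under 0.05, beside 45.3% of all. A fold change over 1.5 with an unadjusted p under 0.05, the thresholds the study set for miRNAs, was met by 2 members, beside 16.4% of all. The share of members called was therefore near that of miRNAs in general, and the median log2FC was 0.08 for the members and 0.02 for all miRNAs. The called members were miR-46-5p, miR-47-3p and miR-75-3p, so in neither pair were both 3p arms called.

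The strongest change was in miR-46-5p, the scarcer arm of miR-46. In Control its level was 147, 146 and 162 CPM in replicates 1 to 3. In Glu it was 229, 250.1 and 224 CPM. In DMSO + Glu it was 216, 279 and 266 CPM. Every one of these was above every Control library. In Nar + Glu the level was 257, 268 and 222 CPM, so the 9 glucose libraries did not overlap the 3 Control libraries, as was so for 14.7% of all miRNAs. Its log2FC was 0.69 (SE 0.120, edgeR adjusted p = 0.000275), a 61.0% rise. It was 0.75 (edgeR adjusted p = 0.000144) after thinning. With each library left out in turn it ranged from 0.65 to 0.73, and the call was kept each time.

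The paralogous arm miR-47-5p did not pass the test. It had 102, 108 and 109 CPM in Control against 102 to 156 CPM in the glucose libraries. Its log2FC was 0.23 (SE 0.134, edgeR adjusted p = 0.189), with a 95% interval of −0.05 to 0.51. The lowest glucose value, that of Glu replicate 3, lay just under the lowest Control value and Nar + Glu replicate 3 lay within the Control range, so the groups overlapped, while the other 7 glucose libraries lay above Control.

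The commonest member, miR-47-3p, fell. Control libraries had 4266, 4004 and 4939 CPM, and Glu libraries 3638.5, 4099.7 and 4156 CPM. The level was 3731, 3494 and 3861 CPM with DMSO + Glu and 3117, 2671 and 2894 CPM with Nar + Glu. The Nar + Glu libraries were the lowest, while the Glu libraries overlapped Control. Its log2FC was −0.34 (SE 0.105, edgeR adjusted p = 0.0157), and −0.31 (adjusted p = 0.0200) after thinning. The call was lost without Control replicate 3, the highest library (−0.26, adjusted p = 0.0989), with library totals alone (−0.17, adjusted p = 0.387) and with Nar + Glu left out of the glucose groups (−0.22, adjusted p = 0.208), all in edgeR.

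Its partner miR-46-3p had 3330.2, 3233 and 3272 CPM in Control, an SD of only 48.8. In Glu it had 3670.2, 4084 and 3516 CPM. DMSO + Glu gave 3608, 2852 and 3303 CPM. All Glu libraries lay above Control, while DMSO + Glu lay above, below and within its range. Nar + Glu had 3103, 2541 and 3312 CPM, below Control in 2 libraries and within its range in the other. The log2FC was 0.01 (SE 0.112, edgeR adjusted p = 0.952), with an interval of −0.22 to 0.24. The counts of miR-46-3p and miR-47-3p were also added up as 1 row. Its log2FC was −0.18 (SE 0.102, edgeR adjusted p = 0.170), and it was not called. This row is free of the split of reads only if each read was counted once, and how reads were counted was not found.

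The other 3p arm that fell was miR-75-3p, the scarcer partner of miR-79-3p. It had 87.9, 94.2 and 86.7 CPM in Control and 70.7, 91.5 and 45.6 CPM in Glu. In DMSO + Glu it had 66.2, 39.4 and 44.9 CPM, and in Nar + Glu 59.3, 51.3 and 59.7 CPM. Control was high and tight, and only Glu replicate 2 reached into its range. The log2FC was −0.63 (SE 0.162, edgeR adjusted p = 0.00529), a fall of 35.3%, and −0.58 (adjusted p = 0.0241) after thinning. With each library left out in turn it ranged from −0.72 to −0.55 with adjusted p from 0.00144 to 0.0345 in edgeR, so the call was kept each time.

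For miR-79-3p, the arm with known roles in the epidermis, no difference passed the test. Control libraries had 178, 221 and 205 CPM, and Glu libraries 208, 226 and 148 CPM. The level was 208, 228 and 185 CPM with DMSO + Glu and 256, 300.4 and 198 CPM with Nar + Glu. Glu and DMSO + Glu surrounded Control, and the highest libraries were in Nar + Glu. The log2FC was 0.10 (SE 0.139, edgeR adjusted p = 0.602), with an interval of −0.19 to 0.39. The minor arms miR-79-5p (0.10, SE 0.180, adjusted p = 0.680) and miR-75-5p (0.06, SE 0.246, adjusted p = 0.865) did not pass the test in edgeR either, and the interval of miR-75-5p ran from −0.45 to 0.57.

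Other miRNAs moved in the same contrast, and their part in these results was not tested. Of the 14 tissue markers listed, miR-1-3p of muscle fell (log2FC −0.38, adjusted p = 0.0393), while lsy-6-3p of neurons (0.70, adjusted p = 0.0330) and miR-42-3p of embryos (0.99, adjusted p = 3.17e-06) rose in edgeR. No other marker was called. The other neuronal ones were miR-124-3p (0.35) and miR-791-3p (−0.23), and the other embryo and germline ones ran from −0.04 (miR-36-3p) to 0.32 (miR-41-3p). With miR-1-3p left out before scaling, miR-46-5p (0.66), miR-47-3p (−0.37) and miR-75-3p (−0.66) were still called by edgeR. Depth and glucose cannot be told apart beyond the thinned values. Within this contrast glucose cannot be told apart from the DMSO and Nar that some of its groups carried.

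**Figure D2:**
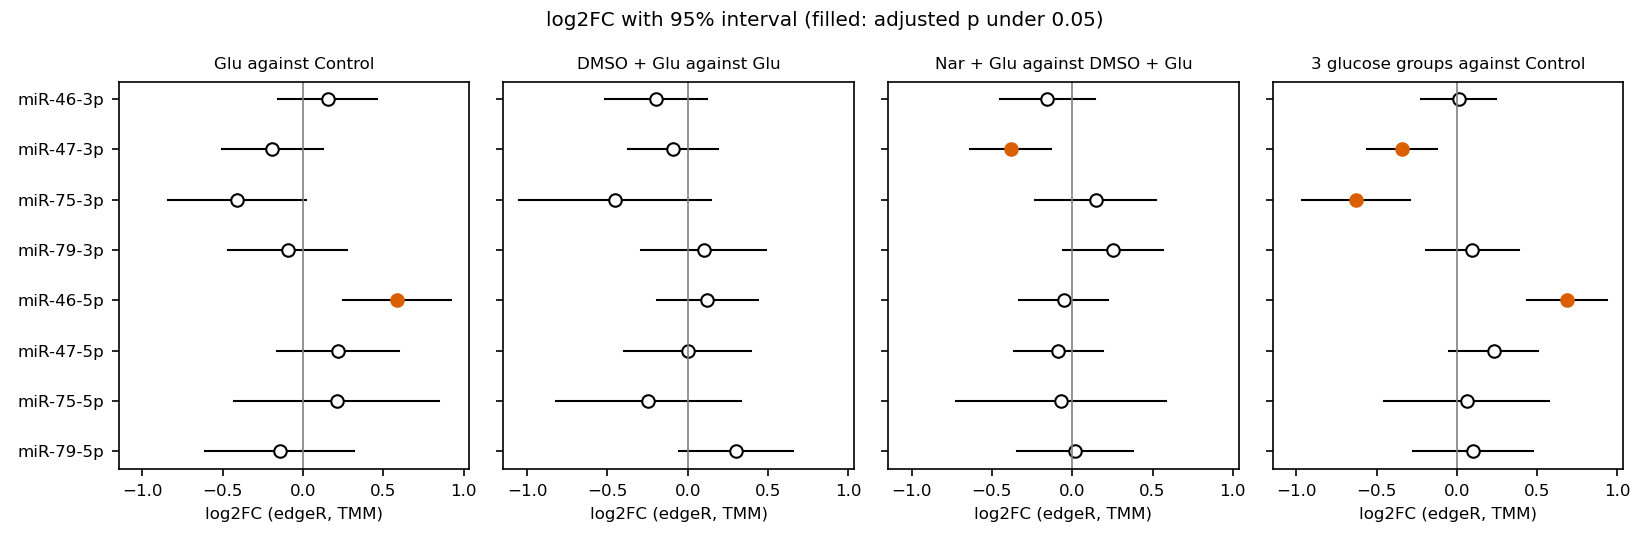
log2FC from edgeR (x axis) with its 95% interval for the 8 arms in the 4 comparisons, with filled points for an adjusted p under 0.05. Filled points are miR-46-5p in Glu against Control (0.59), miR-47-3p in Nar + Glu against DMSO + Glu (−0.38), and miR-46-5p, miR-47-3p and miR-75-3p in the 3 glucose groups against Control.

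Glu against Control shares its Control and Glu libraries with the comparison above and asks about glucose without solvent. Of the 8 members 1 was called after adjustment, beside 8.52% of 223 miRNAs. It was called higher, beside 3.59% higher and 4.93% lower among all, and the same member passed the fold and p thresholds, beside 13.9%. It was miR-46-5p, with a log2FC of 0.59 (SE 0.164, edgeR adjusted p = 0.0232), and 0.56 (adjusted p = 0.0356) after thinning. In the same comparison lsy-6-3p of neurons (1.08, adjusted p = 0.0232) and miR-42-3p of embryos (0.80, adjusted p = 0.00383) rose in edgeR. The other neuronal markers, miR-124-3p (0.27) and miR-791-3p (−0.02), were not called. Nor were the other embryo and germline miRNAs, which ran from −0.12 (miR-41-3p) to 0.34 (miR-39-3p). The part of these markers in the result was not tested. The call of miR-46-5p was lost with any of the Control libraries or Glu replicate 2 left out (edgeR adjusted p up to 0.115). It was also lost with library totals alone (0.61, edgeR adjusted p = 0.161), a scaling under which 5.83% of all miRNAs were called. The levels of miR-46-3p also did not overlap, with Glu above Control, as in 31.4% of all miRNAs, but its log2FC was 0.15 (SE 0.150, edgeR adjusted p = 0.567). For miR-47-3p the log2FC was −0.19 (SE 0.153, adjusted p = 0.451) and for miR-75-3p −0.41 (SE 0.209, adjusted p = 0.209), both in edgeR. The remaining arms had log2FC from −0.15 to 0.22, all with intervals that include 0.

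DMSO + Glu against Glu asks about the solvent, and it shares the Glu libraries with the comparison before. None of the 8 members was called by edgeR, and none had an unadjusted p under 0.05. Among all 215 miRNAs the share called was 0%, with 10.2% at an unadjusted p under 0.05, and DESeq2 called 0 members as well. No member passed the fold and p thresholds, beside 6.05% of all. The estimate farthest from 0 was that of miR-75-3p, at −0.45 (SE 0.268, edgeR adjusted p = 0.482) with an interval of −1.05 to 0.14. Without Glu replicate 3, the library with the lowest miR-75-3p of Glu, it was −0.64 and was called (edgeR adjusted p = 0.0386). The intervals of the 3p arms of miR-46 and miR-47 were narrower, −0.51 to 0.12 and −0.37 to 0.19. The remaining arms had log2FC from −0.24 to 0.30, all with intervals that include 0. The highest was miR-79-5p at 0.30 (SE 0.161, edgeR adjusted p = 0.459), with DMSO + Glu above Glu without overlap, as in 15.3% of all miRNAs.

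Nar + Glu against DMSO + Glu asks about Nar itself, with the solvent in both groups. After adjustment 1 of the 8 members was called in edgeR, beside 21.5% of 219 miRNAs. It was called lower, beside 11.9% lower and 9.59% higher among all, and no member passed the fold and p thresholds, beside 13.2%. The member called was miR-47-3p. Its 3117, 2671 and 2894 CPM in Nar + Glu lay under the 3731, 3494 and 3861 CPM of DMSO + Glu without overlap, as 34.2% of all miRNAs were without overlap. The log2FC was −0.38 (SE 0.118, edgeR adjusted p = 0.0310), a fall of 23.4%.

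This call of miR-47-3p rested on the scaling and on every library. With library totals alone the log2FC was 0.05 (edgeR adjusted p = 0.774), since the plain CPM were 3681, 3462 and 3853 in Nar + Glu and 3250.1, 3367 and 3974 in DMSO + Glu. With any of the 6 libraries left out it ranged from −0.39 to −0.26 with adjusted p from 0.0805 to 0.237 in edgeR. The muscle miRNA miR-1-3p fell in the same comparison (−0.72, edgeR adjusted p = 0.00215), and without it the value for miR-47-3p was −0.32 (adjusted p = 0.0811). The embryonic miR-35-3p fell too (−0.52, edgeR adjusted p = 0.0141), and its part in the result was not tested. The other embryo and germline markers were not called and went in both directions, from −0.44 (miR-37-3p) to 0.44 (miR-41-3p).

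The paralog miR-46-3p had a log2FC of −0.16 (SE 0.140, edgeR adjusted p = 0.466) with an interval of −0.45 to 0.14, and the summed row of both paralogs −0.19 (SE 0.128, adjusted p = 0.314). miR-79-3p had 0.26 (SE 0.147, edgeR adjusted p = 0.244). Without Nar + Glu replicate 3, its lowest library there, this was 0.47 and was called (edgeR adjusted p = 0.00641). miR-75-3p had 0.15 (SE 0.179, edgeR adjusted p = 0.626). The 5p arms had log2FC from −0.09 to 0.02, none called. With library totals alone, miR-79-3p (0.69), miR-75-3p (0.60) and miR-79-5p (0.45) were called higher, beside 41.6% of all miRNAs called under that scaling, whose median was itself 0.37.

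Within a library the ratio of paralogs does not depend on how that library is scaled. It was used to ask whether the members of a pair kept step. For miR-46-3p to miR-47-3p it can depend on how reads matching both were counted, which was not found, so this ratio carries that uncertainty. Ratios are log2 of counts with a pseudocount of 0.5, and groups were compared by exact permutation of the libraries, two-sided. The lowest p attainable is 0.1 with 3 libraries against 3 and 0.00455 with 9 against 3. In all, 16 pair ratios were tested, and their p are unadjusted. The glucose libraries come from 3 treatments, so the 9 are not replicates of a single condition. Ligation efficiency differs between sequences, so a ratio is compared between groups and is not read as a ratio of molecules.

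The ratio of miR-46-3p to miR-47-3p was −0.36, −0.31 and −0.59 in Control replicates 1 to 3. It was 0.01, −0.01 and −0.24 in Glu and −0.05, −0.29 and −0.23 in DMSO + Glu. In Nar + Glu it was −0.01, −0.07 and 0.19. All 9 glucose libraries thus stood closer to equal counts than any Control library, where miR-47-3p led. The glucose groups exceeded Control by 0.34 (exact permutation p = 0.00455, the lowest attainable), a 1.27-fold higher ratio. Against this, 13.9% of the 25200 ratios of any 2 miRNAs also did not overlap, and 57.8% had a larger difference, so this shift was of an ordinary size for 2 miRNAs of the table.

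The separation was narrow, 0.02 between the lowest glucose library and the highest Control library. Without Control replicate 3 the difference was 0.26 (exact permutation p = 0.0727). For Glu against Control it was 0.34 without overlap, as for 28.1% of ratios (exact permutation p = 0.1, the lowest attainable). Nar + Glu against DMSO + Glu gave 0.23 (exact permutation p = 0.2) and DMSO + Glu against Glu −0.11 (exact permutation p = 0.3), both with overlap. The counting SE was 0.0138 to 0.0199 per library, and the SD between replicates of a group was 0.126 to 0.153.

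The ratio of miR-75-3p to miR-79-3p was −1.02, −1.23 and −1.24 in Control, and −1.56, −1.30 and −1.70 in Glu. It was −1.65, −2.53 and −2.04 in DMSO + Glu, and −2.11, −2.55 and −1.72 in Nar + Glu. The means were −1.16 ± 0.13, −1.52 ± 0.20, −2.07 ± 0.44 and −2.13 ± 0.41 (SD, n = 3). Every glucose library was lower than every Control library, a lack of overlap shared by 13.9% of ratios of any 2 miRNAs. The spread was widest in the groups with DMSO. The difference between the glucose groups and Control was −0.74 (exact permutation p = 0.0136), and 22.2% of ratios of any 2 miRNAs differed by more.

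With each library left out in turn the difference in this ratio stayed between −0.82 and −0.66, with exact permutation p from 0.0121 to 0.0364. The single steps between groups were not separated in the same way. Glu against Control gave −0.36 without overlap, as for 28.1% of ratios of any 2 miRNAs (exact permutation p = 0.1, the lowest attainable). DMSO + Glu against Glu gave −0.55 with overlap (exact permutation p = 0.2), and Nar + Glu against DMSO + Glu −0.05 (exact permutation p = 0.7). Counting SE was 0.0784 to 0.136 here. For the pair, Nar + Glu and DMSO + Glu overlapped. With 3 libraries against 3 no difference of any size could reach an exact permutation p under 0.05.

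**Figure D3:**
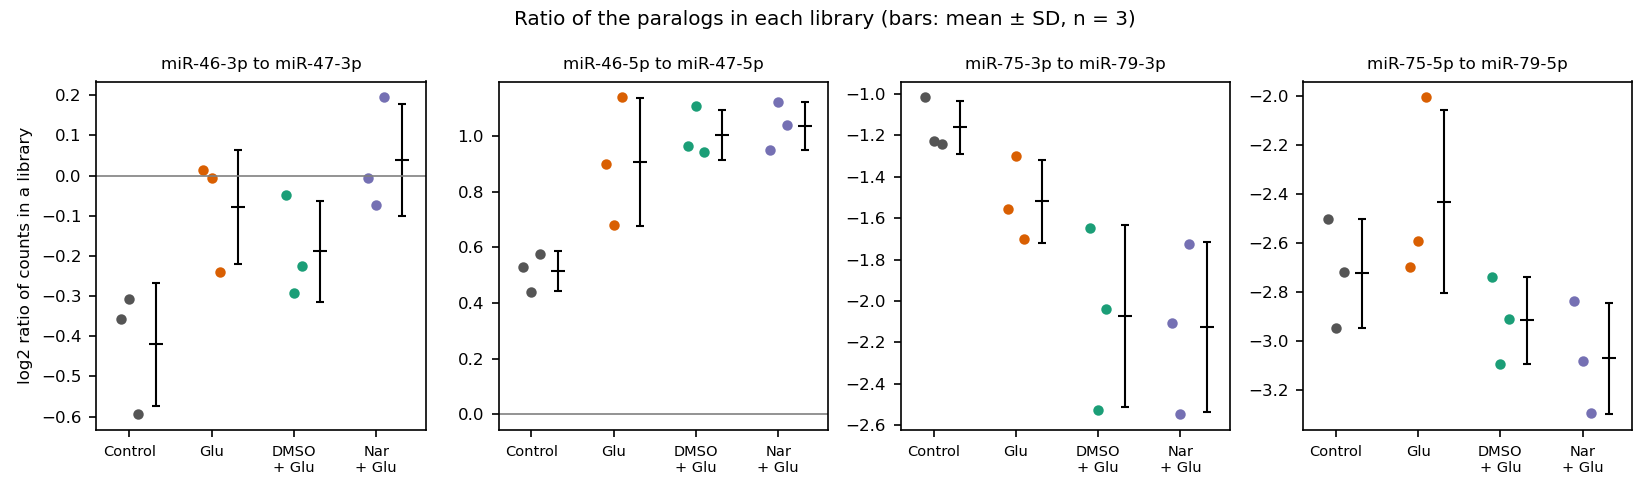
log2 ratio of the counts of paralogs (y axis, with its own range in each panel) by group, where each point is a library and the bars are mean ± SD (n = 3). The glucose libraries lie above Control for miR-46-3p to miR-47-3p and for miR-46-5p to miR-47-5p, lie below it for miR-75-3p to miR-79-3p, and overlap it for miR-75-5p to miR-79-5p.

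In the 5p arms the first pair parted in the same direction. The ratio of miR-46-5p to miR-47-5p was 0.53, 0.44 and 0.58 in Control replicates 1 to 3. It averaged 0.91 ± 0.23 for Glu, 1.00 ± 0.09 for DMSO + Glu and 1.04 ± 0.09 for Nar + Glu (SD, n = 3), and every glucose library lay above Control. The difference was 0.47 (exact permutation p = 0.00455), without overlap as for 13.9% of ratios of any 2 miRNAs. It was 0.43 to 0.51 with each library left out (exact permutation p up to 0.0182). The 5p ratio of miR-75 to miR-79 was −2.72 ± 0.22 in Control and −2.80 ± 0.37 over the glucose libraries (SD, n = 3 and 9), a difference of −0.08 (exact permutation p = 0.718). The steps between groups went in opposite directions, with 0.29 for Glu against Control (exact permutation p = 0.4, with overlap) and −0.48 for DMSO + Glu against Glu (exact permutation p = 0.1, the lowest attainable, without overlap). The counts of miR-75-5p behind these ratios were few.

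Other pairs of worm paralogs with a shared seed give a scale for these shifts. The 5 pairs examined were miR-49-3p with miR-83-3p, miR-87-3p with miR-233-3p, lin-4-5p with miR-237-5p, miR-251 with miR-252-5p, and miR-239a-5p with miR-239b-5p. Between the glucose groups and Control their ratios differed by 0.05 to 0.84 in size. There 2 of the 5 did not overlap, beside 13.9% of ratios of any 2 miRNAs. For Nar + Glu against DMSO + Glu 3 of the 5 did not overlap, beside 32.4% of ratios of any 2 miRNAs, while both pairs described here overlapped. For DMSO + Glu against Glu neither these 5 nor the 3p pairs described here were without overlap, beside 16.3% of ratios, but the 5p ratio of miR-75 to miR-79 was, as given above.

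The share of the 5p arm in the counts of its precursor separates a change of the whole precursor from a change of an arm. For miR-46 and miR-47 it also carries the uncertain split of the 3p reads. For miR-46 this share was 4.22%, 4.33% and 4.72% in the Control libraries and 5.88%, 5.77% and 5.99% in the Glu libraries. It was 5.66%, 8.90% and 7.46% with DMSO + Glu, and 7.65%, 9.53% and 6.29% with Nar + Glu. Each glucose library exceeded each Control library, and the groups with DMSO spread more widely than Glu. On the scale of the log2 ratio of 5p to 3p the difference was 0.68 (exact permutation p = 0.0136). For Glu against Control it was 0.43 (exact permutation p = 0.1, the lowest attainable), without overlap as in 31.6% of precursors. Of the 76 precursors with enough counts in both arms, 13.2% did not overlap between the 3 glucose groups and Control. The others were miR-39, miR-40, miR-42, miR-51, miR-55, miR-82, miR-83, miR-1829b and miR-4813, so miR-46 was 1 of 10, of which 4 moved toward 5p.

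For miR-47 the 5p share averaged 2.37% ± 0.240 in Control and 3.11% ± 0.655 in Glu. It averaged 3.31% ± 0.365 with DMSO + Glu and 4.03% ± 0.405 with Nar + Glu (SD, n = 3 each). The glucose groups exceeded Control by 0.56 on the log2 scale (exact permutation p = 0.00909), with overlap through Glu replicate 3. Without Control replicate 3 it was 0.49 (exact permutation p = 0.0545). Nar + Glu lay above DMSO + Glu without overlap, as in 23.7% of precursors, with a difference of 0.30 (exact permutation p = 0.1, the lowest attainable). Both precursors of this pair thus had more 5p relative to 3p in the glucose groups. With TMM, miR-46 had a higher 5p arm and a near-equal 3p arm. For miR-47 the log2FC was −0.34 for the 3p arm, which was called, and 0.23 for the 5p arm, which was not. With library totals alone these were −0.17 (edgeR adjusted p = 0.387) and 0.41 (edgeR adjusted p = 0.0676), so the arm behind the shift of miR-47 depended on the scaling.

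The other pair had higher 5p shares and overlap between the glucose groups and Control. For miR-79 they averaged 15.1% ± 3.58 for Control, 15.3% ± 3.27 for Glu, 16.8% ± 1.54 for DMSO + Glu and 14.7% ± 2.73 for Nar + Glu (SD, n = 3 each), and the glucose groups differed from Control by 0.07 on the log2 scale (exact permutation p = 0.75). For miR-75 they were 5.63% ± 1.58, 9.36% ± 5.63, 10.1% ± 2.54 and 8.35% ± 3.20 in the same order, a difference of 0.73 (exact permutation p = 0.0909) that rests on few 5p counts. The arm ratio of miR-75 carried a counting SE of 0.243 to 0.446, so its spread limits what can be read from it. In all, 16 arm ratios of these precursors were tested, and their p are unadjusted.

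**Figure D4:**
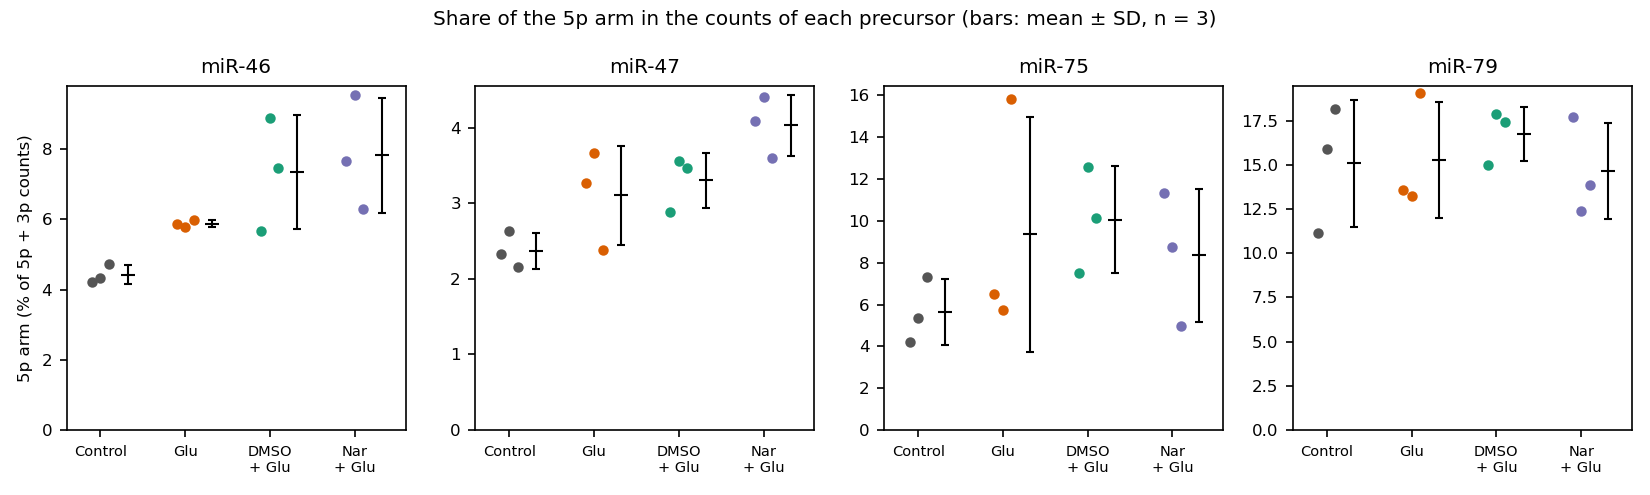
Share of the 5p arm in the summed 5p and 3p counts of each precursor (y axis, in percent, from 0) by group, where each point is a library and the bars are mean ± SD (n = 3). For miR-46 the Control libraries lie at 4.22% to 4.72% and all glucose libraries above them, while for miR-79 the groups overlap.

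Across the 12 libraries the paralogs were not each other's nearest match. The levels of miR-46-3p and miR-47-3p had a Pearson's r of 0.55 (permutation p = 0.0636, Benjamini-Hochberg adjusted p = 0.342 over 224 partners) and a Spearman's rho of 0.42 (permutation p = 0.178). The paralog ranked 20 of 224 for miR-46-3p and 49 of 224 for miR-47-3p. Within groups, from deviations from the group means, r was 0.43 (exact permutation p = 0.166). Without Nar + Glu replicate 2 and Glu replicate 2, the libraries farthest from the median of miR-46-3p, r was 0.20. As the extremes of miR-46-3p were taken out, the lower r cannot show that the relation rested on those libraries.

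No relation between the levels of miR-75-3p and miR-79-3p passed the test, with r = 0.03 (permutation p = 0.932, adjusted p = 0.957) and rho = −0.02 (permutation p = 0.957). With 12 libraries this does not show that they were unrelated. The paralog ranked 98 of 224 for miR-75-3p and 117 of 224 for miR-79-3p. Within groups r was 0.39 (exact permutation p = 0.403), and without DMSO + Glu replicate 2 and Control replicate 2 it was 0.08. As all levels of a library share its scaling and its depth, these coefficients describe likeness only.

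The 3 miRNAs most like miR-46-3p were miR-59-3p (r = 0.79), miR-56-3p (r = 0.78) and miR-39-3p (r = 0.75), none with an adjusted permutation p under 0.05 (lowest 0.125). Those most like miR-47-3p were miR-248 (r = 0.93), miR-241-5p (r = 0.92) and miR-235-3p (r = 0.91), and 53 of its 224 partners had an adjusted permutation p under 0.05. These permutations crossed the 4 groups, so differences between groups enter the p-values. Within groups the r of these 3 partners were 0.67, 0.58 and 0.69. For miR-75-3p the nearest were miR-51-3p (r = 0.82), miR-253-5p (r = 0.78) and miR-70-5p (r = 0.76), with a lowest adjusted permutation p of 0.0672. For miR-79-3p they were miR-244-5p (r = 0.84), miR-239a-3p (r = 0.75) and miR-43-3p (r = 0.75), with a lowest adjusted permutation p of 0.132. No miRNA was among the 3 nearest of both members of a pair. These ranks depended on the scaling. With library totals alone miR-59-3p had an r of 0.24 with miR-46-3p (rank 168) and miR-241-5p an r of 0.62 with miR-47-3p (rank 24), while the other 10 stayed within rank 9.

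**Figure D5:**
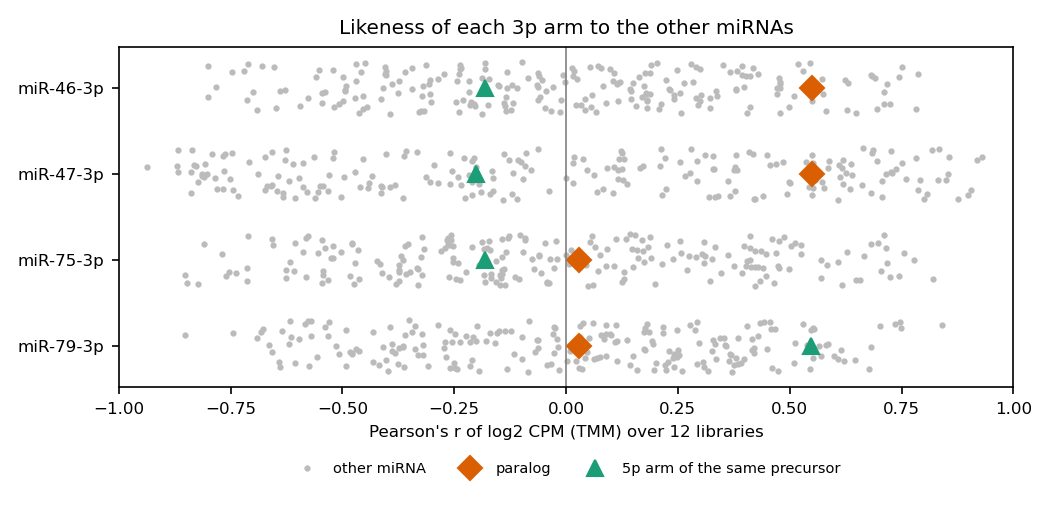
Pearson's r of log2 CPM over the 12 libraries (x axis) between each 3p arm (rows) and every other miRNA kept (grey points), with the paralog as a diamond and the 5p arm of the same precursor as a triangle. The paralog lies at 0.55 for miR-46-3p and miR-47-3p and at 0.03 for miR-75-3p and miR-79-3p, to the left of the nearest miRNAs at 0.79, 0.93, 0.82 and 0.84.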

How the data were processed

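The authors trimmed reads with Cutadapt (1.14 in the submitters' processing notes) and quantified them with mirdeep2. They deposited raw counts of mature miRNAs without normalization, per sample and as a combined table, which were equal in 12 of 12 libraries. Neither the miRBase release nor the mismatches allowed were found (not given in the sources used here). A poly(A) selection is named in the labels ahead of the small RNA kit and not in the study's miRNA methods. Of 5 repeated names the first entry was kept. No sequence is printed. Groups and replicate numbers came from the labels, and nothing there says that replicates are separate cultures, so p-values measure the spread between these libraries.

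Counts were tested with edgeR 4.0.16 in R 4.3.3 (TMM, filterByExpr with a minimum count of 10, quasi-likelihood test, Benjamini-Hochberg over all miRNAs tested). Pairwise fits used 6 libraries, and the glucose groups against Control used all 12. Arm ratios needed a mean count of 10 in both arms, and log2 CPM for likeness had a prior count of 2 and 100000 permutations, whose smallest p is 1e-05. The procedure was tested on simulated data. Positions are from the Ensembl annotation of WBcel235. Plots were made with matplotlib 3.10.9.

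The miRNAs named are all 8 arms, the 3 nearest partners of each 3p arm, miR-1-3p, tissue markers and 5 comparison pairs. These members and lists were chosen with earlier results of these data known. Alternatives were DESeq2 size factors, library totals alone, DESeq2 1.42.0, edgeR's exact test, other filters, a pseudocount of 5, leaving out miR-1-3p, summing the paralogs or the arms, a replicate block, 12 libraries in 1 fit, Glu as reference and each library left out. Thinning and leaving out miR-45-3p, whose counts equal those of miR-44-3p, were added after seeing the data.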

Additional observations from a re-analysis of the deposited data

How the results depend on the processing

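Between the glucose groups and Control, miR-46-5p and miR-75-3p were called under every alternative run, and 2 to 3 members were called with a library left out. For Nar + Glu against DMSO + Glu the count of members called was 0 with DESeq2 size factors, without a filter, with a mean count of at least 100, with miR-1-3p or miR-45-3p left out, the paralogs added up, 12 libraries in 1 fit or Glu as reference. It was 3 with library totals alone and 0 to 1 with a library left out. For Glu against Control it was 0 with library totals alone and 0 to 1 with a library left out. DMSO + Glu against Glu gave 0 to 1 with a library left out. The edgeR exact test was run only on pairs of groups.

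Some values changed sign. With library totals alone the values for Nar + Glu against DMSO + Glu (Nar below) of miR-46-3p and miR-47-3p were 0.29 and 0.054, and with Glu as reference that of miR-75-3p was −0.21. With a library left out, the Nar values ran from −0.20 to 0.015 for miR-46-3p and from −0.12 to 0.26 for miR-79-5p. In the glucose groups against Control, miR-46-3p was −0.019 with the mean count filter and −0.019 without miR-1-3p, and −0.017 to 0.054 with a library left out. There, miR-79-3p was −0.032 without Nar + Glu and miR-75-5p −0.22 when thinned, and with a library left out miR-75-5p ran from −0.11 to 0.28 and miR-79-5p from −0.15 to 0.29. The causes were not tested.

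Whether the replicate numbers pair the libraries was not decided. Of 18 same-numbered pairs 7 correlated over 0.1 (−0.37 to 0.36), and pairs with different numbers were not compared. With the replicate block the members called were 0 for Nar + Glu against DMSO + Glu (miR-47-3p −0.38, edgeR adjusted p = 0.0510) and 2 for Glu against Control, where miR-75-3p joined (−0.46, adjusted p = 0.0328).

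With a pseudocount of 5 the arm ratio of miR-75 between the glucose groups and Control was 0.79 (exact permutation p = 0.0364). With a library left out, the arm ratios there ran from 0.49 to 0.64 for miR-47, from 0.53 to 0.95 for miR-75 and from −0.17 to 0.24 for miR-79. For Nar they ran from −0.085 to 0.27 for miR-46 and from −0.62 to 0.0063 for miR-75. In DMSO + Glu against Glu they ran from −0.076 to 0.24 for miR-47 and from −0.059 to 0.75 for miR-75, and in Glu against Control from −0.20 to 0.21 for miR-79. The pair ratio of miR-46-3p to miR-47-3p between the glucose groups and Control ran from 0.26 to 0.40, that of miR-75-5p to miR-79-5p from −0.19 to 0.028, and that of miR-75-3p to miR-79-3p for Nar from −0.28 to 0.16. The likeness of miR-75-3p and miR-79-3p was −0.021 as Spearman's rho.

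With 11 to 38 counts per library, miR-75-5p was limited by depth, and counting SEs cover counting error only. Reads shared by miR-46-3p and miR-47-3p could not be separated again from these counts.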
